A study of Equus caballus with 4 samples.

Results

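Matricellular proteins are secreted into the extracellular matrix and act there on receptors, growth factors and proteases, and less as structural fibres. The mRNA of osteopontin (*SPP1*) and of 9 other genes of this kind was followed in equine satellite cells (ESC) that differentiated with or without HMB. The other genes were *SPARC*, *THBS1*, *THBS2*, *TNC*, *POSTN*, *EDIL3*, *MGP*, *CTGF* and *CYR61*. Probes were taken by symbol, as every non-control probe whose deposited gene name was one of these 10. This gave 29 probes of 9 genes, out of 43603 probes of 24907 genes or transcripts. No probe had *TNC* as its gene name, but 5 probes of 1 transcript were described as tenascin C. Their values are given here, and they are not counted among the 9 genes.

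ESC are the muscle precursor cells of the horse, and these were primary cultures from the semitendinosus muscle of colts (6 animals, aged 6 months). After 48 h of differentiation in medium with 2% horse serum, HMB, a metabolite of leucine, was added for 24 h, while control cells were kept in the same medium without it. The methods give the HMB dose as 50 µM and the sample descriptions as 50 µg. The cells were collected on day 3 of differentiation. RNA of both groups was later hybridised to 4 arrays of 60-base probes, always with Cy5 for HMB-treated and Cy3 for control cells. Any preference of a probe for a dye is thus part of its ratio. The sample descriptions call the arrays biological replicates (*n* 4), but they also call the cells GO-treated and repeat 1 replicate number at their end, so that treatment and array numbers were taken from the sample titles. The colts behind each array are not stated.

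Matricellular genes are typically quiet in resting adult tissue and are switched on during development, injury and remodelling. In regenerating muscle, osteopontin is made by myoblasts and by infiltrating macrophages, and it binds integrins and CD44 on nearby cells. Transforming growth factor-β and the co-activators YAP and TAZ induce several of the family, among them *CTGF* and *CYR61*.

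Values are log2 ratios of HMB-treated over control cells, so that a negative value stands for less mRNA with HMB. A gene with several probes is represented by its probe of highest mean intensity. Each mean ratio was tested against 0 with limma, and a gene passed at an adjusted *P* of at most 0.05 over all 27384 tested probes. The *P* values measure the spread between these 4 arrays, where limma draws the variance of each probe toward that of all probes. All 29 probes were well above background in both channels on every array, and a gene is called not above background where no channel was so on all 4.

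Osteopontin mRNA fell in HMB-treated cells, with a ratio between −1.77 and −1.19 on the 4 arrays. *CTGF* mRNA also fell, and that of *EDIL3* rose. The representative probes of *SPARC* and *MGP* fell with the lowess normalisation of the authors but were higher with HMB when it was left out. In all, 5 of the 9 genes passed (4 lower, 1 higher), beside 22.5% of the 15536 tested genes or transcripts (11.6% lower, 10.9% higher). Of the 9 genes, 3 passed with normexp correction, beside 6243 of 27384 tested probes, and 2 without array 3, beside 2705 of 27493 probes. By probe, 13 of 29 passed, 12 lower and 1 higher, beside 22.8% of all tested probes. Without lowess normalisation 7 passed as lower and 5 as higher. In that setting 7831 of all 27379 tested probes passed, 59.2% of them higher. The median ratio of the 9 genes was −0.33, beside 0.02 for all tested genes. Without lowess normalisation it was 0.0013, beside 0.056 for all tested probes. After lowess normalisation the median of the 9 genes was 0.03, −0.24, −0.49 and −0.67 on arrays 1 to 4. The arrays hold RNA of whole cultures, in which fewer cells of a type and less RNA per cell cannot be told apart.

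**Figure D1:**
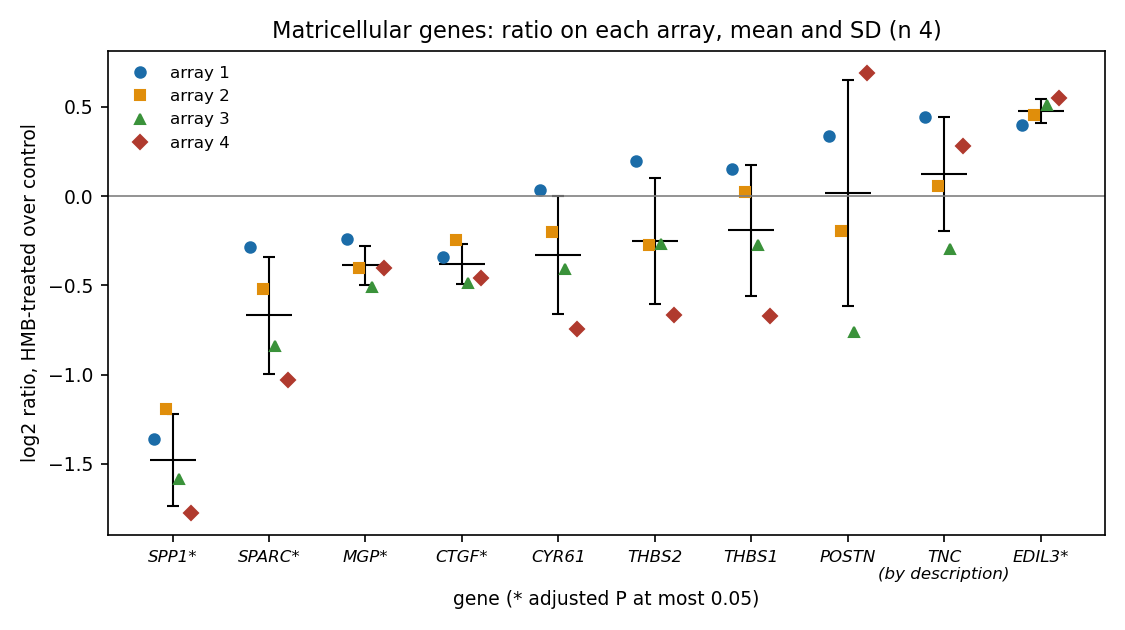
Log2 ratio of HMB-treated over control cells (axis in log2 units) for each matricellular gene, with 1 point per array and a bar for the mean. *SPP1* lies between −1.77 and −1.19 and *EDIL3* between 0.40 and 0.55, while *SPARC* (mean −0.67), *MGP* (−0.39) and *THBS2* (−0.25) are negative here and positive without lowess normalisation.

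Osteopontin is a phosphorylated glycoprotein that carries an integrin-binding motif and acts as an adhesion protein and a cytokine. A pair of adjoining probes reads its transcript (chr3:49518837-49518896 and chr3:49518897-49518956 on the EquCab1 build, plus strand). Their first 30 bases are shown because these probes carry the largest ratios of the 10 genes, and nothing is capitalised since they share no base.
SPP1 probe 1: ttgatcattagtttagtgtgtggcttcatg
SPP1 probe 2: gtttggcctacattctttccatataagaaa

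The processed signal of probe 1 in control cells was 2651, 2564, 2810 and 2590 on arrays 1 to 4. In HMB-treated cells it was 1032, 1123, 937 and 757. The groups did not overlap, and each HMB signal was well under the control signal of its own array. The log2 ratios of probe 1 were −1.36, −1.19, −1.58 and −1.77, and those of probe 2 were −1.47, −1.27, −1.65 and −1.74. Both probes were furthest from 0 on array 4 and nearest to it on array 2. The mean of probe 1 was −1.48 ± 0.26 (SD, *n* 4), which is 2.79-fold less mRNA with HMB (adjusted *P* 0.00113). Probe 2 gave −1.53 ± 0.21 (adjusted *P* 0.000706). A lower mean ratio than that of *SPP1* was found for 51 genes or transcripts of 15536.

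**Figure D2:**
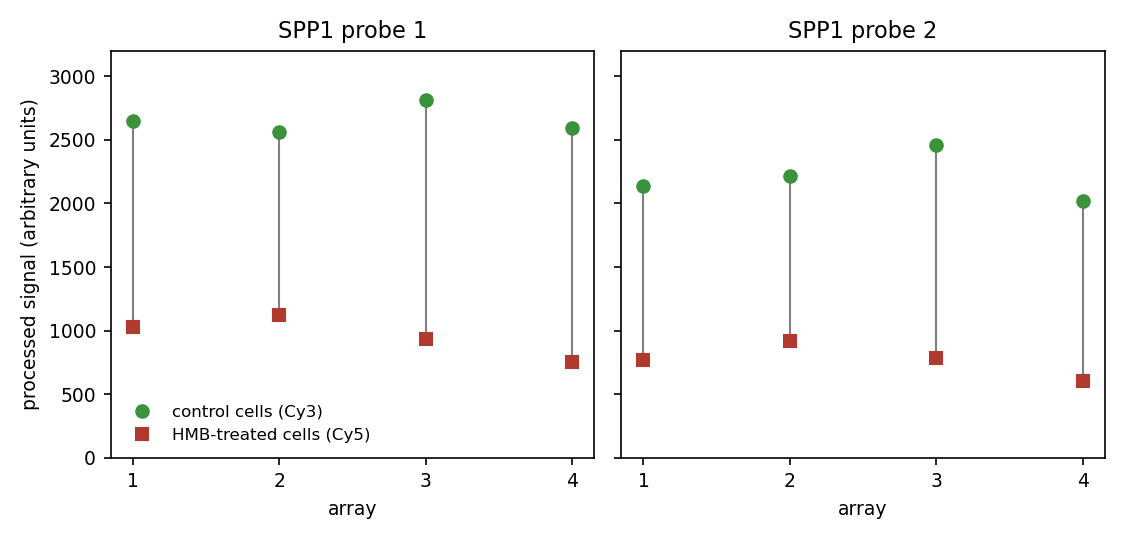
Processed signal (arbitrary units) of both *SPP1* probes on each array in control (Cy3) and HMB-treated (Cy5) cells, with a line joining the channels of an array. Probe 1 lies between 2564 and 2810 in control cells and between 757 and 1123 in HMB-treated cells.

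*SPARC*, or osteonectin, encodes a glycoprotein that binds collagen and takes part in its assembly. Its 8 probes fall on 2 sites of the transcript on the plus strand, 5 overlapping probes at site 1 (chr14:25774804-25774867) and 3 at site 2 (chr14:25775716-25775815). The first 30 bases of the brightest probe of each site are shown because the sites gave different results, in lower case throughout as they share no base.
SPARC site 1: attttaacccaagtcatgacactcttagtt
SPARC site 2: acctccaagcatttcatgaaaaagctgctt

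The representative probe, which lies at site 2 (chr14:25775736-25775795), had ratios of −0.29, −0.52, −0.84 and −1.03 on arrays 1 to 4. It was below 0 on every array, most of all on array 4. The means of the site 2 probes were −0.21, −0.48, −0.76 and −0.99 on the same arrays, and those of the site 1 probes were 0.44, −0.31, −0.39 and −1.04. The sites were close on array 4 and had opposite signs on array 1. The representative probe had a mean of −0.67 ± 0.33 (1.59-fold less, adjusted *P* 0.0160), and all 3 probes of site 2 passed, with means of −0.67 to −0.57. At site 1, 0 of 5 probes passed in limma, and 0 did before adjustment (means −0.36 to −0.30, adjusted *P* from 0.274 to 0.355). The difference between the sites was not tested. Without lowess normalisation the representative probe turned to 0.32 (adjusted *P* 0.0316) and the other site 2 probes also turned positive, while the 5 probes of site 1 stayed between −0.20 and −0.16. With normexp background correction it was −0.32 (adjusted *P* 0.116), and over all 8 probes it was −0.43 (adjusted *P* 0.131), so that neither passed. Without array 3 the adjusted *P* was 0.0630.

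*MGP* encodes matrix Gla protein, a vitamin K-dependent inhibitor of calcification that also binds bone morphogenetic proteins. Its 2 probes overlap on the minus strand (probe 1 at chr6:42586480-42586539, probe 2 at chr6:42586460-42586519) and share 40 bases. The first 30 bases of each are shown because overlapping probes differed in ratio, and capitals mark bases that lie in both probes.
MGP probe 1: agtagtgaaagtgcagtgtaGTGAAGGTTG
MGP probe 2: GTGAAGGTTGAAGGGGAGTTAAGATGTGTA

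Probe 1, the representative, had ratios of −0.24, −0.40, −0.51 and −0.40 on arrays 1 to 4. Probe 2 had −0.51, −0.70, −0.76 and −0.64. Both were lowest on array 3 and nearest to 0 on array 1, and probe 2 was further from 0 on every array. The means were −0.39 ± 0.11 (1.31-fold less, adjusted *P* 0.0128) and −0.65 ± 0.10 (adjusted *P* 0.00281). Without lowess normalisation probe 1 turned to 0.44 (adjusted *P* 0.0106) and probe 2 to 0.05 (adjusted *P* 0.648). With normexp correction probe 1 was −0.16 (adjusted *P* 0.0788) and probe 2 was −0.48 (adjusted *P* 0.00216). Probe 1 did not pass without array 2 (adjusted *P* 0.0651) or without array 3 (adjusted *P* 0.0625).

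**Figure D3:**
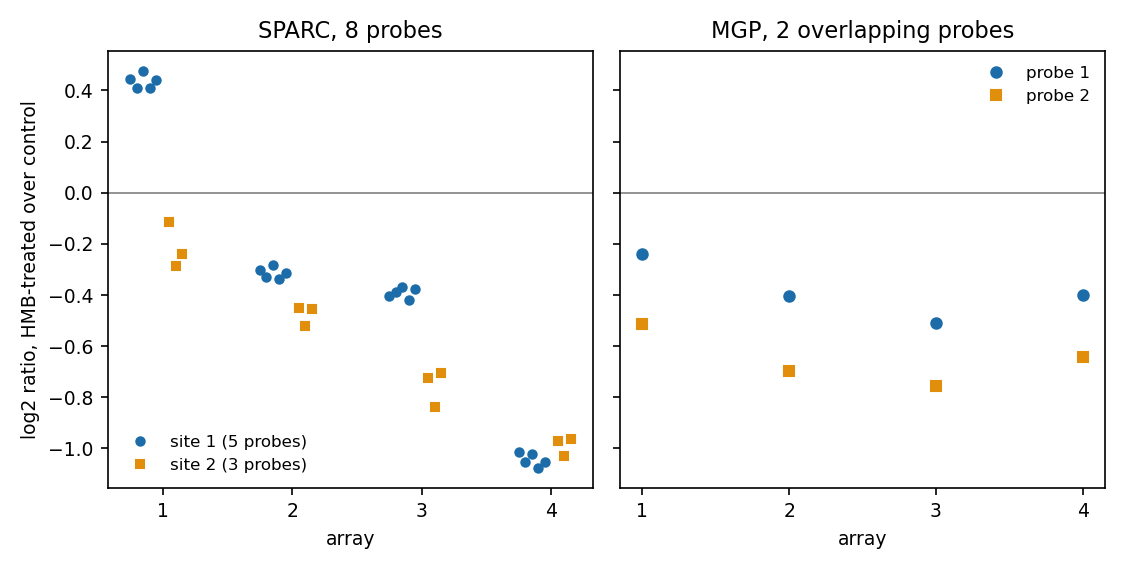
Log2 ratio (log2 units) of each *SPARC* and *MGP* probe on each array, with *SPARC* probes marked by site. On array 1 the *SPARC* sites lie at 0.44 and −0.21 on average, and both *MGP* probes are below 0 on every array, all after lowess normalisation; without it, *MGP* probe 1 (0.44) and the representative *SPARC* probe (0.32) have positive means.

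*CTGF* (CCN2) and *CYR61* (CCN1) encode cysteine-rich proteins of the CCN family, which bind integrins and heparan sulphate. *CTGF* was read by 5 probes of the minus strand that share 53 bases (the outermost at chr10:72916490-72916549 and chr10:72916497-72916556). *CYR61* was read by 2 probes of the minus strand that share 50 bases (chr5:51397541-51397600 and chr5:51397551-51397610). The outermost probes are shown whole because their overlap makes the probes of a gene repeat readings of 1 stretch, and capitals mark the bases common to all probes of the gene.
CTGF probe 1: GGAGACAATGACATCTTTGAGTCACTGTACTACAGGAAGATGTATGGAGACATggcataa
CTGF probe 5: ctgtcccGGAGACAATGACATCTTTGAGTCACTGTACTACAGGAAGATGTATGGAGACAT
CYR61 probe 1: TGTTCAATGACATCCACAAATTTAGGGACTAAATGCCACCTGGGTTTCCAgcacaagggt
CYR61 probe 2: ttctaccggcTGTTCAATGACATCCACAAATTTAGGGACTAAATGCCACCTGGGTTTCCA

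*CTGF* had ratios of −0.34, −0.24, −0.49 and −0.46 on arrays 1 to 4. Every array was below 0, with arrays 3 and 4 a little lower than arrays 1 and 2. The mean was −0.38 ± 0.11 (1.30-fold less, adjusted *P* 0.0136), and all 5 probes passed, with means of −0.43 to −0.38. Without array 3 it was −0.35 and did not pass (adjusted *P* 0.0661). *CYR61* had ratios of 0.03, −0.20, −0.41 and −0.75. It was close to 0 on array 1 and clearly negative on array 4. Its mean of −0.33 ± 0.33 did not pass (adjusted *P* 0.108), nor did its other probe, at −0.38 (adjusted *P* 0.0833), and it ran from −0.45 without array 1 to −0.19 without array 4. The difference of *CTGF* minus *CYR61* within arrays was −0.37, −0.04, −0.08 and 0.29, with a mean of −0.05 ± 0.27. This mean was 0.056 without array 1 and −0.17 without lowess normalisation. In an exact two-sided test that reverses the signs of arrays it gave *P* 0.625, or 0.781 adjusted over the 5 pairs compared in this way. With 4 arrays this test has 8 outcomes and a smallest possible *P* of 0.125, so that no pair could pass.

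Thrombospondins 1 and 2 are trimeric glycoproteins that restrain blood vessel growth, and thrombospondin 1 also activates latent transforming growth factor-β. *THBS1*, with 1 probe (chr1:146126116-146126175), had ratios of 0.15, 0.02, −0.27 and −0.67 on arrays 1 to 4. *THBS2* (chr31:1345335-1345394) had 0.20, −0.27, −0.27 and −0.67. Both were positive on array 1 and lowest on array 4. The mean of *THBS1* was −0.19 ± 0.36 (adjusted *P* 0.345), and between −0.31 and −0.033 with an array left out. That of *THBS2* was −0.25 ± 0.35 (adjusted *P* 0.217), and it turned to 0.10 without lowess normalisation and ran from −0.40 without array 1 to −0.11 without array 4. Neither passed, and the 4 probes of *THBS2*, which share 57 bases, gave means between −0.30 and −0.18. Within arrays, *THBS1* minus *THBS2* was −0.05, 0.30, −0.0027 and −0.0043, and the mean of 0.06 ± 0.16 had an exact *P* of 1. This difference was −0.26 without lowess normalisation and −0.018 without array 2. *SPARC*, *THBS1*, *THBS2* and *CYR61* were alike in that each was highest on array 1 and lowest on array 4, although without lowess normalisation *SPARC* was highest on array 2.

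Tenascin C and periostin are matrix proteins of remodelling tissue that bind integrins, and periostin also promotes collagen cross-linking. One tenascin C probe (chr25:15856387-15856446, plus strand) is shown whole because it was found by its description and not by its gene name. It is in lower case, as it is compared with no other sequence.
TNC probe: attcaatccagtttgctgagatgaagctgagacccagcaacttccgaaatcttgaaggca

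The ratios of this probe were 0.44, 0.06, −0.30 and 0.28 on arrays 1 to 4. Those of *POSTN* were 0.34, −0.19, −0.76 and 0.69. Both genes were lowest on array 3 and positive on arrays 1 and 4. The mean of *TNC* was 0.12 ± 0.32 (adjusted *P* 0.505), and between 0.015 and 0.26 with an array left out. It was 0.07 with normexp correction and 0.25 without lowess normalisation, and passed in neither. The 5 *TNC* probes, which share 56 bases, gave means between 0.12 and 0.13. *POSTN* had a mean of 0.02 ± 0.63 (adjusted *P* 0.958). Its 4 probes, the brightest of which spans chr17:16238572-16239665, had means between −0.0015 and 0.11, and 0 passed in limma, before or after adjustment. Its mean was −0.09 without array 1 and −0.20 without array 4, and neither passed. The range over arrays was widest in *POSTN* among the 10 genes, at 1.45 log2 units.

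*EDIL3* encodes a secreted protein that binds the αvβ3 integrin and dampens the adhesion of leukocytes to endothelium. Its single probe lies at chr14:81863785-81863844 on the plus strand. The first 30 bases are shown, in lower case, because it is the gene of the 9 that rose.
EDIL3 probe: cacgagttgatagagcctttataatcagta

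Its signal in control cells was 85.3, 78.3, 96.5 and 82.1 on arrays 1 to 4. In HMB-treated cells it was 112, 107, 137 and 120. The groups did not overlap, and the HMB signal was the higher on each array. The ratios were 0.40, 0.45, 0.51 and 0.55, with the narrowest range of the 10 genes, 0.15. The mean was 0.48 ± 0.07 (1.39-fold more, adjusted *P* 0.00506). The median SD over all tested genes was 0.16.

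Ordered by mean ratio, the genes ran from *SPP1* through *SPARC*, *MGP*, *CTGF*, *CYR61*, *THBS2*, *THBS1*, *POSTN* and *TNC* to *EDIL3*, and without lowess normalisation *SPARC*, *MGP* and *THBS2* moved to positive values. The array values of *SPP1* did not overlap with those of *SPARC*, its neighbour. All other neighbours in this order overlapped. *SPP1* minus *SPARC* was −1.08, −0.67, −0.75 and −0.75 within arrays (mean −0.81 ± 0.18, and −1.74 without lowess normalisation). *SPP1* minus *MGP* was −1.12, −0.79, −1.08 and −1.37 (mean −1.09 ± 0.24, and −1.86 without lowess normalisation). *EDIL3* minus *SPP1* was 1.76, 1.64, 2.10 and 2.32 (mean 1.96 ± 0.31). Each of these differences had a single sign on all arrays and the smallest exact *P* possible, 0.125 (0.208 adjusted over the 5 pairs). For the representative probes after lowess normalisation, the smallest Euclidean distances between 4 ratios were 0.20 for *MGP* and *CTGF* and 0.24 for *THBS2* and *CYR61*, although without lowess *MGP* (0.44) and *CTGF* (−0.37) had opposite signs, as had *THBS2* (0.10) and *CYR61* (−0.20).

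**Figure D4:**
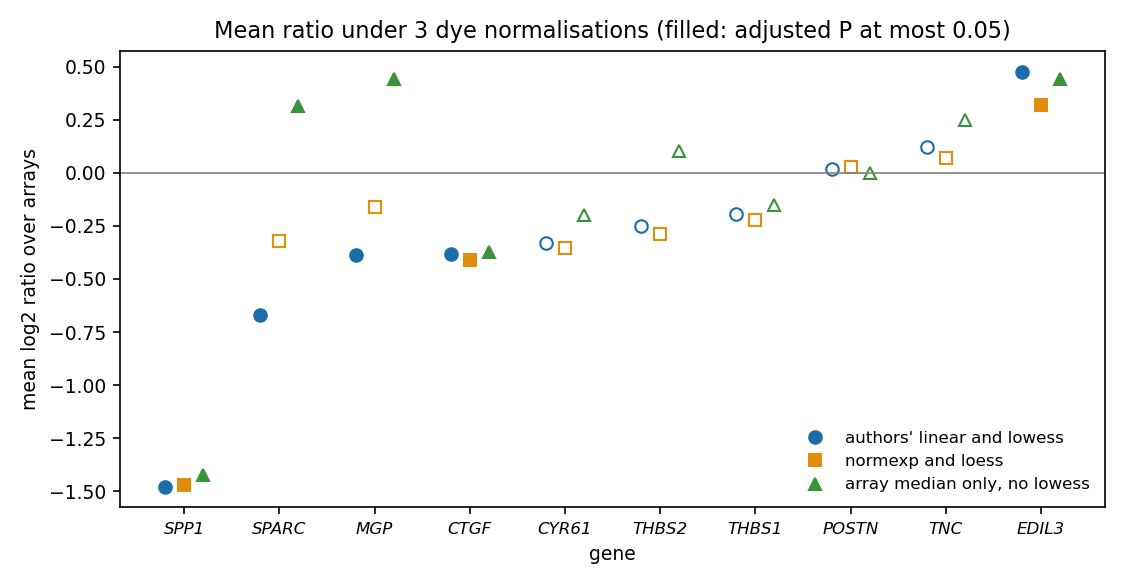
Mean log2 ratio (log2 units, *n* 4) of each matricellular gene with the lowess normalisation of the authors, with normexp correction and loess, and without lowess. *SPP1* stays between −1.48 and −1.42 and *EDIL3* between 0.32 and 0.48, while *SPARC* runs from −0.67 to 0.32, *MGP* from −0.39 to 0.44 and *THBS2* from −0.29 to 0.10.

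The 5 genes whose ratios lay nearest to those of *SPP1*, of 9491 genes with a symbol, were *CXCL10*, *CFB*, *MATN2*, *B2M* and *DUOXA2*, at distances of 0.15 to 0.49 over the 4 arrays. *CXCL10*, a chemokine, had ratios of −1.40, −1.14, −1.71 and −1.82, lowest on array 4 and highest on array 2. *MATN2* encodes the matrix protein matrilin 2 (mean −1.53), *B2M* the light chain of class I histocompatibility molecules (−1.54) and *CFB* complement factor B (−1.31). *DUOXA2*, a maturation factor of dual oxidase 2, had a mean of −1.29. These genes were picked for ratios near those of *SPP1*, so that their direction and their likeness over the arrays follow from the choice. The HMB signal of *CFB* was well above background on 3 of the 4 arrays.

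Related genes were read from 11 lists of 135 genes, of which 102 were tested and 37 passed (36.3%, 28 lower and 9 higher), with a median of −0.14, beside 22.5% and a median of 0.02 for all tested genes. Without lowess normalisation 47 passed, 18 of them higher, beside 7831 of all 27379 tested probes, 59.2% of them higher. Without the myogenic markers, 25 of 90 passed (27.8%), with a median of −0.089. Among 25 other matricellular genes, 17 were tested and 9 passed, with a median of −0.21, while 4 passed without array 2 or array 3 and 6 without array 1. The median was −0.092 without array 4. The 7 that fell were the CCN genes *NOV* (−1.04) and *WISP1* (−0.70, and −0.35 with normexp correction), *SMOC2* (−0.70), a relative of *SPARC*, *THBS3* (−0.68), the tenascin genes *TNN* (−0.68) and *TNXB* (−0.39, and −0.23 with normexp correction), and *MFGE8* (−0.34), a relative of *EDIL3*. The galectin genes *LGALS1* (0.36) and *LGALS3* (0.46) rose, and *LGALS1*, with the highest signal of the list, was 0.65 with normexp correction and 1.30 without lowess. With an array left out, *TNXB* never passed (adjusted *P* from 0.0669 to 0.118). *MFGE8* passed only without array 1, *SMOC2* and *LGALS1* only without array 4, and *LGALS3* without array 1 or array 4. The genes not above background were *SPARCL1*, *SMOC1*, *THBS4*, *TNR*, *WISP3*, *IBSP*, *DMP1* and *FBLN5*.

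Of 18 receptor genes, 17 were tested and 4 passed, beside 22.5% of all tested genes, with a median of −0.04. With normexp correction 7 passed, and without lowess normalisation 8. With an array left out, 2 passed without array 2 or array 3 and 8 without array 4, and the median ran from −0.12 without array 3 to 0.021 without array 1. The median was −0.089 without lowess normalisation, and 0.098 over the 15 genes with both channels well above background. *ITGA9* (0.61), whose product pairs with the β1 chain to bind osteopontin and tenascin C, rose. *ITGB3* also rose (0.26), but it was 0.072 with normexp correction (adjusted *P* 0.316) and 0.074 without lowess (adjusted *P* 0.493). The 4 tested probes of *ITGB3* had means from 0.026 to 0.26, and 1 passed. *ITGA4* (−0.67) and *ITGB6* (−0.50, and −0.33 with normexp correction) fell. Of the tested probes, 3 of 4 passed for *ITGA9*, 4 of 5 for *ITGA4* and 1 of 2 for *ITGB6*. *ITGB1*, the receptor gene of highest signal, had a mean of −0.29 (adjusted *P* 0.0877), but −0.35 with normexp correction (adjusted *P* 0.0443) and −0.0064 without lowess (adjusted *P* 0.960), and it was −0.18 without array 4. The values of *ITGAV* and of *CD44*, another osteopontin receptor, were −0.40 (adjusted *P* 0.0819) and 0.28 (adjusted *P* 0.0767). The 6 tested probes of *ITGAV* had means from −0.44 to −0.21, and 1 passed. *ITGAV* was −0.94 on array 4 and had a mean of −0.22 without it, while that of *CD44* was 0.18 without array 1 and 0.52 without lowess normalisation (adjusted *P* 0.00327), and *ITGB8* was not above background.

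Enzymes that modify or cleave these proteins were tested for 9 of 12 genes. The protease gene *ADAMTS1* fell (−0.49) and was the one of these 9 that passed, beside 22.5% of all tested genes. The median of the list was 0.06 with normexp correction and 0.17 without lowess normalisation, where 2 passed. In the main analysis the median was −0.0028 (between −0.022 and 0.018 with an array left out). This was also the value of *VKORC1*, the gene of highest signal, which recycles the vitamin K that matrix Gla protein needs. *VKORC1* was 0.06 with normexp correction and 0.49 without lowess (adjusted *P* 0.00637). *TGM2*, *MMP3* and *MMP7* were not above background.

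Of 19 genes of inducers, 18 were tested and 4 passed, beside 22.5% of all tested genes, with a median of −0.04. Without array 2 or array 3, 1 passed. The median of the inducers ran from −0.083 without array 1 to 0.0030 without array 4. *TGFB2*, the inducer of highest signal, fell (−1.07), as did *WWTR1* (−0.30), which encodes TAZ, and *TEAD4* (−0.31), which encodes a DNA-binding partner of YAP and TAZ. *TGFBR1* rose (0.32), although its 6 tested probes had means from 0.095 to 0.70 and 3 of them passed. *MKL2* was not above background. Among 10 other targets of these inducers, all tested, 2 passed, beside 22.5% of all tested genes. *ANKRD1* fell (−0.99, and −0.60 without lowess) and *AXL* rose (0.37). The median of these targets was −0.33, and 4 passed with normexp correction, 1 without array 2 and 3 without array 4. *TAGLN*, with the highest signal, had a mean of −0.49 (adjusted *P* 0.0580), or −0.31 without array 4, and 0.05 without lowess normalisation.

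**Figure D5:**
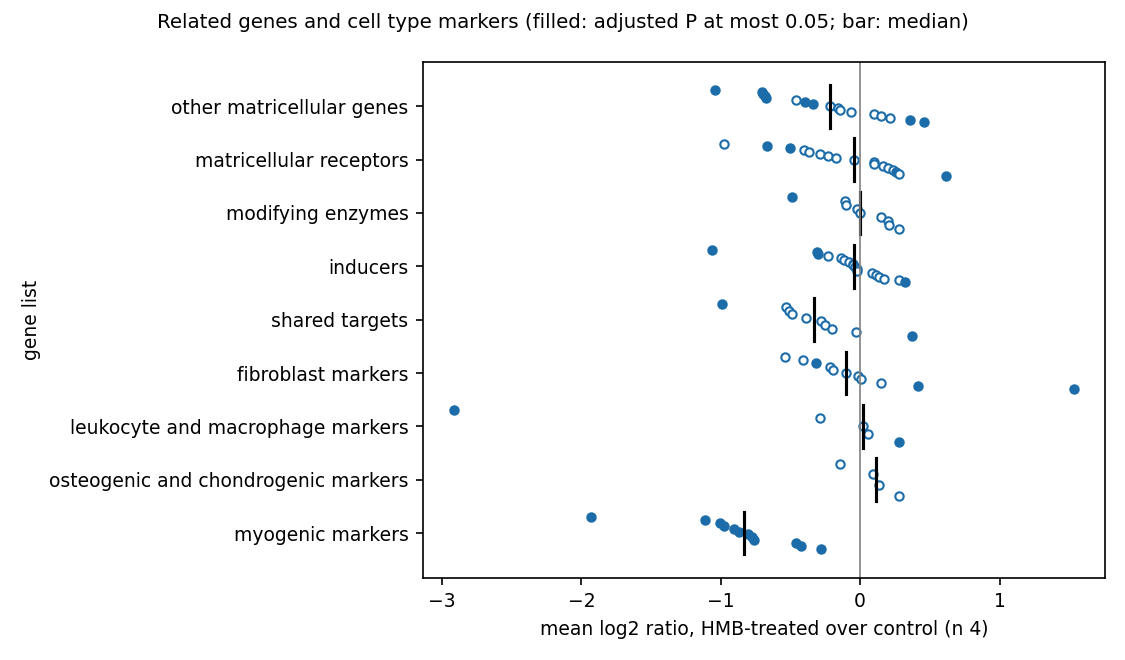
Mean log2 ratio (axis in log2 units, *n* 4) of each tested gene of the related lists, filled where the adjusted *P* is at most 0.05, with a bar for the median of a list. Medians are −0.84 for myogenic markers and −0.21 for other matricellular genes, and −0.10 for fibroblast markers, which is 0.46 without lowess normalisation.

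Cell type markers were read beside the members. All 12 tested myogenic markers of 13 fell, from *MYH8* (−1.93) to *MYF6* (−0.28), with a median of −0.84, while 8 passed without array 2, 3 or 4, and *PAX7* was not above background. The log2 ratio of their summed signals was −0.49, −0.93, −1.26 and −1.43 on arrays 1 to 4, and *MYH3* (−1.11) had the highest signal. Without lowess normalisation 11 of the 12 passed, and *MYH3* was −0.37 and did not (adjusted *P* 0.0522). Of the muscle regulators, *MYF5* was −1.01, *MYOD1* −0.46 and *MYOG* −0.42. The other *MYOD1* probe, at −0.20, did not pass. The summed ratio was highest on array 1 and lowest on array 4, as were, after lowess normalisation, *SPARC*, *THBS1*, *THBS2* and *CYR61*. The same order of these arrays held for the summed ratios of 8 of the 9 lists with tested genes, the myogenic list among them. The part of the myogenic cells in the ratios of the matricellular genes was not tested.

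All 11 fibroblast markers were tested, and 3 passed, or 1 without array 2 or array 3, beside 22.5% of all tested genes in the main analysis. Their median was −0.10, or 0.46 without lowess normalisation, and between −0.19 and −0.042 with an array left out. *PDGFRA* (1.53, and 0.89 with normexp correction) and *FAP* (0.42) rose, and *COL5A1* fell (−0.31). Without lowess normalisation 7 passed, all of them higher, as were 59.2% of all probes that passed, and *COL5A1* was −0.22 (adjusted *P* 0.0600). The log2 ratio of the summed signals was 0.24, −0.20, −0.27 and −0.60 on arrays 1 to 4. *COL1A2*, with the highest signal, had a mean of −0.20 (adjusted *P* 0.247), which turned to 0.17 with normexp correction and 0.86 without lowess. This probe was −0.31 without array 1 and −0.082 without array 4, and the 9 probes of *COL1A2* had means from −0.59 to −0.20, of which 2 passed. The methods describe a preplating of the isolated cells to lessen fibroblasts, and the part of fibroblasts in the ratios of the matricellular genes was not tested.

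Of 10 leukocyte and macrophage markers, 5 were tested and 2 passed, or 1 with any array left out, beside 22.5% of all tested genes in the main analysis. Their median was 0.02, or −0.03 with normexp correction and −0.040 without array 1. *CD74* was lower with HMB on every array, but its HMB signal was well above background on 1 of the 4 arrays, so that the size of its ratio is not fixed (−2.91, and −1.36 with normexp correction). The brightest *PTPRC* probe, of highest signal in the list, had a ratio of 0.28 (adjusted *P* 0.0374), or 0.51 without lowess normalisation (adjusted *P* 0.00364). With any array left out this probe did not pass (adjusted *P* from 0.0574 to 0.115). The 8 tested *PTPRC* probes ran from −0.48 to 0.37, and 7 of them passed. The log2 ratio of the summed signals was 0.38, 0.15, 0.15 and 0.07 on arrays 1 to 4. The macrophage genes *CSF1R*, *AIF1*, *CD163*, *ITGAM* and *TYROBP* were not above background, and the part of leukocytes in the ratio of *SPP1* was not tested.

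Of 7 osteogenic and chondrogenic markers, 4 were tested. A gene of these 4 had 5 tested probes, of which 1 that was not its representative passed. By representative probe, 0 passed in limma, before or after adjustment, beside 22.5% of all tested genes. Their median was 0.11, or 0.028 without array 4. Without lowess normalisation the median was −0.0084 and 1 passed, *COL2A1* (−0.31, adjusted *P* 0.0214). *ACAN*, with the highest signal, had a mean of 0.09, or 0.022 without array 4, the log2 ratio of the summed signals was −0.02, −0.05, 0.24 and 0.36 on arrays 1 to 4, and *SP7*, *ALPL* and *PHEX* were not above background. None of the 6 endothelial and 5 adipocyte markers (*PECAM1*, *CDH5*, *KDR*, *VWF*, *TEK*, *EMCN*, *ADIPOQ*, *PLIN1*, *FABP4*, *PPARG* and *LPL*) was above background on all 4 arrays, and without array 4 a single adipocyte marker was tested and passed (0.39). Of the 37 related genes that passed, 19 did so whichever array was left out, and 0 changed sign with normexp correction or without lowess. Without array 2 the number that passed was 19, beside 2573 of 27522 tested probes, and without array 3 it was 20, beside 2705 of 27493.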

How the data were processed

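The authors scanned 4 two-colour arrays (HMB in Cy5, control in Cy3) with Feature Extraction, version 10.10.1.1 per the file headers. The deposited intensity values are spot and background signals and the dye-normalised processed signals. Linear and lowess normalisation by the authors gave the deposited log10 ratio of each spot, Cy5 over Cy3. They were multiplied by 3.32 to log2 ratios. Control spots (1417 per array) and spots marked non-uniform or outlying (11, 17, 32 and 15) were left out, and repeated spots were averaged. Testing required a channel that was well above background on each of the 4 arrays, and values from at least 3 of them. limma 3.58.1 in R 4.3.3 was used (intercept only, empirical Bayes, two-sided), with Benjamini-Hochberg adjustment over 27384 probes and a threshold of 0.05, at which 6257 probes passed (10546 before adjustment). Other software was data.table (1.17.8), Python (3.11.15), pandas (2.3.3), numpy (2.4.6) and, for the plots, matplotlib (3.10.9). The scripts were tested on simulated data. The number of arrays limits the precision.

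Probes were matched to symbols by deposited gene name (25023), RefSeq accession (875), alias (7) or description (77), and 17621 had none. All 135 list symbols were found. The genes named are the 10 members, list genes that passed or had the highest signal, and the 5 genes nearest to *SPP1*. Of the myogenic markers that passed, *DES*, *CDH15*, *NCAM1*, *CKM*, *ACTN2* and *TNNT1* are given by counts only. Other list genes were named after their values were seen. One list gene is not reported here, and list genes that are not named are given by counts. The members and lists were chosen with earlier results of these data known.

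Alternatives were normexp correction (offset 50) with loess, array-median centring without lowess, a one-sample test per probe, a robust prior with an intensity trend, separate channels with or without the array as block (correlation 0.548), no filter or a filter on both channels, use of marked spots, the deposited table, a gene's mean over its probes, and the omission of each array.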

Additional observations from a re-analysis of the deposited data

Results flagged for a closer look

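The 4 array values of 64 results (the members, the pairs, the related genes that passed or had the highest signal of a list, the genes nearest to *SPP1*, and *ITGAV* and *CD44*) were examined for an array that lay apart, by the gap to its nearest neighbour over the whole range (Dixon's test). Chance alone picks out about 1 in 20, and 6 results were picked out. *SMOC2* had a log2 ratio of −1.33 on array 4, with the other arrays between −0.54 and −0.42. *ITGA4* had −1.28 on array 4, with the others between −0.54 and −0.41. *ITGAV* had −0.94 on array 4, with the others between −0.27 and −0.16. *MFGE8* had −0.057 on array 1, with the others between −0.45 and −0.40. *PTPRC* had 0.47 on array 1, with the others between 0.21 and 0.22. The difference of *THBS1* minus *THBS2* was 0.30 on array 2, with the others between −0.048 and −0.0027.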

How the results depend on the processing

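*SPP1* (−1.57 to −1.38) and *EDIL3* (0.32 to 0.50) passed in all 15 alternatives, and *CYR61*, *THBS1*, *THBS2*, *POSTN* and *TNC* in 0 of 15. The one-sample test gave *SPP1* an adjusted *P* of 0.0496 and *EDIL3* one of 0.0436. The deposited table holds the same ratios as the main analysis, so that this alternative could not differ. Without lowess normalisation *SPARC* reversed to 0.32, *MGP* to 0.44, *THBS2* to 0.10 and *THBS1* minus *THBS2* to −0.26. With normexp correction *SPARC* (−0.32) and *MGP* (−0.16) no longer passed and 3 members did. With a one-sample test of each probe on its own, 768 probes, 2 members and 2 related genes passed, without *SPARC* (−0.67), *MGP* (−0.39) and *CTGF* (−0.38). With the channels unpaired, 2226 probes, 3 members and 20 related genes passed, without *MGP* (−0.39) and *CTGF* (−0.38). With no filter on dim probes, 3690 probes and 17 related genes passed, without *SPARC* (−0.67), and as the mean of its probes *SPARC* was −0.43. With an array left out, the counts were 2573 to 4957 probes, 2 to 5 members (2 without array 3) and 19 to 37 related genes. The ranges were −0.80 to −0.55 for *SPARC*, −0.44 to −0.35 for *MGP*, −0.43 to −0.35 for *CTGF*, −0.20 to 0.28 for *POSTN*, −0.018 to 0.096 for *THBS1* minus *THBS2* and −0.16 to 0.056 for *CTGF* minus *CYR61*. The cause was not tested. Of the probes that passed, 49.1% were higher with HMB, beside 59.2% without lowess, 29.9% with unpaired channels and 36.4% without array 2. Signal over background limited the related genes that could be tested to 102 of 135.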
